A study of Mus musculus with 7 samples.

Results

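Osteoclasts, the multinucleated cells that resorb bone, form from myeloid precursors under the control of the bone stroma. Stromal cells make CSF1 (gene Csf1), which keeps the precursors alive, and RANKL (Tnfsf11), which binds the receptor RANK (Tnfrsf11a) on them, while osteoprotegerin (OPG, Tnfrsf11b) is a secreted decoy that captures RANKL. RANK signalling switches on the transcription factor NFATc1, which drives fusion of the precursors (Dcstamp), the co-stimulatory receptor OSCAR (Oscar) and the resorption machinery, namely the collagen-cutting protease cathepsin K (Ctsk), tartrate-resistant acid phosphatase (Acp5) and an osteoclast subunit of the proton pump (Tcirg1).

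These 10 genes, picked by symbol, were followed among 42687 gene identifiers in the count table of cells sorted for CD24 and CD29 from mouse femurs, a population that the labels call skeletal stem cells. C57BL/6 mice, 3 months of age at the outset, ate a high fat diet (HFD, 60% fat) or a low fat diet (LFD, 10% fat) for 4 weeks. There were 3 HFD libraries (HFD 2, 3 and 4) and 4 LFD libraries (LFD 1 to 4), and the labels name no other treatment, allele or sex and do not say whether animals were pooled or separate. Library totals lay between 17391613 and 24681838 counts. Genes with counts numbered 18389, 18850 and 17546 in HFD 2, 3 and 4, against 17331, 15788, 15394 and 17772 in LFD 1 to 4. LFD 2 and LFD 3 thus had the fewest genes with counts and the lowest totals. Whether RNA of low level was missed more often in LFD 2 and LFD 3 was not tested, and this limits how their low or absent counts can be read. Levels are CPM, counts per 1000000 of the TMM-scaled library total, with mean ± SD over n = 3 HFD and n = 4 LFD libraries.

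Some facts of the whole series touch every value below. Xist had 0 counts in each HFD library and 257 to 526 in each LFD library, and 4 Y-linked genes summed to 2494 to 3405 counts in each HFD library and 1 to 5 in each LFD library, so diet and the sex shown by these transcripts cannot be told apart. RNA of blood cells was present. The summed level of the erythroid list (9 genes found of 10) was 22308 to 108030 CPM in HFD and 92580 to 159330 CPM in LFD, that of the granulocyte list (10 genes) 8397 to 16369 CPM in HFD and 952 to 5385 CPM in LFD, and that of the monocyte and macrophage list (12 genes) 107 to 143 CPM in HFD and 12.8 to 60.5 CPM in LFD. The reticular stroma list (7 genes, among them Cxcl12 and Lepr) summed to 1504 to 2629 CPM in HFD and 182 to 418 CPM in LFD. The osteoblast list gave 39467 to 63160 CPM in HFD and 13317 to 43803 CPM in LFD. In bulk RNA, fewer cells of a type and less RNA per cell cannot be told apart.

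Of the 10 genes, 7 had counts in every library and 3 did not. Oscar had 0 counts in all 7 libraries, which allows at most 0.105 to 0.188 CPM per library (3 counts of the scaled total, counting error only). Dcstamp had 7 counts in HFD 3 and 0 in the other 6 libraries. Tnfrsf11a, the RANKL receptor, had 12 counts in HFD 2, 28 counts in LFD 4 and 0 in the other 5. These 3 were too low for edgeR's expression filter, and of them DESeq2 gave an adjusted p for Tnfrsf11a alone (0.948). Of the other genes on the osteoclast marker list, singled out here after their values were seen, some were likewise at or near 0 and some were not. Siglec15, a surface lectin, had 0 counts throughout. Ocstamp, a partner of Dcstamp in fusion, had 4 and 14 counts in HFD 3 and HFD 4 and 0 elsewhere, and Atp6v0d2, a pump subunit, had 12 and 61 counts in HFD 2 and HFD 3 and 0 elsewhere. The calcitonin receptor gene Calcr, by contrast, had 426, 500 and 518 counts in HFD 2, 3 and 4, against 881, 347, 521 and 823 counts in LFD 1 to 4. The integrin subunit gene Itgb3 had 211, 359 and 539 counts in HFD 2, 3 and 4, against 173, 0, 106 and 300 counts in LFD 1 to 4. Mmp9 was present in every library. The sorted material thus held Ctsk, Acp5, Tcirg1 and Nfatc1 RNA in every library with little or none of the RANK, OSCAR and fusion genes. Ctsk is also known in mouse periosteal progenitors and Nfatc1 and Acp5 in other cell types.

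Compared per length, as CPM per kilobase of annotated exon, the decoy receptor stood first. Tnfrsf11b had a median of 261 over the 7 libraries (range 108 to 365), and its lowest library lay above the highest library of every other member. Acp5 (median 55.8, range 20.3 to 73.4) and Ctsk (33.2, 19.3 to 76.0) were next and not separated, Acp5 being the higher of the pair in 4 of 7 libraries. Nfatc1 followed at 20.3 CPM per kilobase and lay below Ctsk in all 7 libraries, although their ranges overlapped. Csf1 (6.98), Tcirg1 (5.98) and Tnfsf11 (5.11) had overlapping ranges, with Csf1 above Tcirg1 in 5 of 7 libraries and Tcirg1 above Tnfsf11 in 4 of 7.

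**Figure D1:**
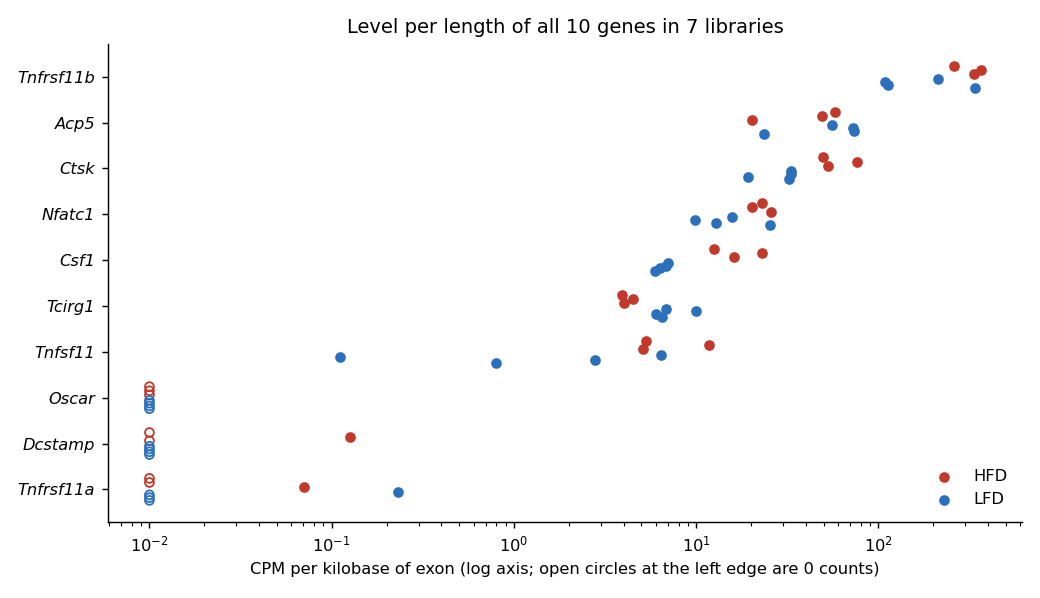
Level of each of the 10 genes per kilobase of exon on a log axis, 1 point per library (HFD red, LFD blue), ordered by the median over 7 libraries, with open circles for 0 counts. Tnfrsf11b lies highest (median 261), and Oscar, Dcstamp and Tnfrsf11a are at 0 in most libraries.

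The stretch before the start site of 4 members is printed to show the sequence at genes that the results turn on. Csf1 and Tnfsf11 are the stromal inducers, Acp5 is an effector with RNA in every library, and Oscar is the effector with none. RefSeq windows (GRCm38.p6) were found for 7 of the 10 genes, 11 windows in all since Acp5 and Tcirg1 have 3 start sites each, and the Acp5 window is the one whose downstream bases read in a GENCODE transcript. Each line gives the 250 bases before the start site in the gene's own sense, 5′ to 3′. All 4 genes lie on the minus strand, and the windows are Csf1 chr3:107760470-107760719, Tnfsf11 chr14:78308044-78308293, Acp5 chr9:22130599-22130848 and Oscar chr7:3616158-3616407. Capitals mark matches on either strand to the letters of the TATA box, TATAAA, or to the core letters of sites bound by NFAT proteins, GGAAA.
Csf1: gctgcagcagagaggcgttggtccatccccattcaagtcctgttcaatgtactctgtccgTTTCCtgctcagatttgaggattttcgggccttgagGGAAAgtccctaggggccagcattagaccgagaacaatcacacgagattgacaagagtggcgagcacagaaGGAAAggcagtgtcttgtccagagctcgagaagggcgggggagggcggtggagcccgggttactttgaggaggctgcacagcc
Tnfsf11: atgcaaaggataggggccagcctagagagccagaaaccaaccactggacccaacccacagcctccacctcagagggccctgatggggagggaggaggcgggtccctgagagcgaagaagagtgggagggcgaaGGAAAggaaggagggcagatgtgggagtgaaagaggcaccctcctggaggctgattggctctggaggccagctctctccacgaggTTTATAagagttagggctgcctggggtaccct
Acp5: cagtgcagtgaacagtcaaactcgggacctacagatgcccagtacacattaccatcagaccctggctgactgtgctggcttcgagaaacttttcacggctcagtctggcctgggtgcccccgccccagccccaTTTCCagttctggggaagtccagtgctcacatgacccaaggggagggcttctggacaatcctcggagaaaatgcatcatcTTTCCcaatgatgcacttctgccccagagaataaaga
Oscar: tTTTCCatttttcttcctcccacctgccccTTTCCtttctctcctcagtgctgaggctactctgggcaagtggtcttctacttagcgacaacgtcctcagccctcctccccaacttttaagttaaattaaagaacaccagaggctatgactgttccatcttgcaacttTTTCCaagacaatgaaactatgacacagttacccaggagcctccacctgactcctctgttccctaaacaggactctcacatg
The search covered 5 motifs on both strands, these being the TATA box and the NFAT core as spelled above, TGANTCA for AP-1 factors, TGTGGT for RUNX factors and AGATAA for GATA factors. No match overlapped another in these 4 windows.

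Tnfsf11 alone of the 11 windows held TATAAA, and 12.4% of all 32851 windows of this length held it. The match lay on the strand opposite to the gene's own sense and is therefore printed as TTTATA. Its first printed base was 32 bases before the start site. GGAAA occurred in 7 of the 11 windows and in 55.6% of all windows. Oscar, with 0 counts, had 3 such matches, as many as Csf1 had. AP-1 and RUNX letters were in none of the 11 windows (6.75% and 14.0% of all windows), GATA letters were in 2 (9.99% of all), 1 each of Acp5 and Tcirg1, and the Ctsk and Tnfrsf11a windows held none of the 5. A match is a description of letters only.

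Csf1 showed the clearest separation between the diets. It encodes the growth factor that monocytes and osteoclast precursors depend on (ENSMUSG00000014599, mm10 chromosome 3, 107741048 to 107760469). The levels were 85.5, 121 and 65.9 CPM in HFD 2, 3 and 4, against 31.3, 33.4, 36.1 and 36.9 CPM in LFD 1 to 4. Every HFD library lay above every LFD library, and the LFD libraries were close together. The means were 90.9 ± 28.0 CPM in HFD and 34.4 ± 2.56 CPM in LFD, a log2 fold change of 1.40 ± 0.23 (SE, 95% interval 0.87 to 1.93). Over the whole table this did not pass edgeR's quasi-likelihood test (adjusted p = 0.169), while DESeq2 called it (adjusted p = 5.69e-05, range over the 16 alternatives 5.69e-05 to 0.717). The reticular stroma, granulocyte and monocyte sums also separated the diets in the same direction as Csf1, and their part in its difference was not tested.

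Ctsk had a similar separation with more spread in LFD (ENSMUSG00000028111, chromosome 3, 95499256 to 95509362). It measured 80.2, 115 and 75.2 CPM in HFD 2, 3 and 4, against 48.6, 29.2, 50.2 and 49.9 CPM in LFD 1 to 4. The groups did not overlap, HFD 3 was the highest library for both Ctsk and Csf1, and LFD 2 lay below the other LFD libraries. The means were 90.1 ± 21.6 CPM in HFD and 44.5 ± 10.2 CPM in LFD, a log2 fold change of 1.02 ± 0.26 (95% interval 0.42 to 1.61). This did not pass edgeR's adjusted threshold (adjusted p = 0.318), and DESeq2 called it (adjusted p = 0.0315, range over the alternatives 0.0315 to 0.878).

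Acp5, which shares the osteoclast label with Ctsk, did not share its pattern. The phosphatase gene (ENSMUSG00000001348, chromosome 9, 22126727 to 22135711) measured 41.3, 99.1 and 118 CPM in HFD 2, 3 and 4, against 47.8, 149, 147 and 113 CPM in LFD 1 to 4. HFD 2 and LFD 1 were low, the other 5 libraries were between 99.1 and 149 CPM, and the groups overlapped. Acp5 averaged 86.1 ± 39.9 CPM in HFD and 114 ± 47.3 CPM in LFD (log2 fold change -0.41 ± 0.47, 95% interval -1.49 to 0.68, edgeR adjusted p = 0.844), and with each library left out in turn the log2 fold change ran from -0.70 to -0.08, the last without HFD 2. Car2, the carbonic anhydrase of osteoclasts and of red cells, was also lowest in HFD 2 and LFD 1, with 2253, 8318 and 9956 CPM in HFD 2, 3 and 4, against 5162, 13037, 15375 and 9683 CPM in LFD 1 to 4. The erythroid sum had its lowest value in HFD 2 (22308 CPM), followed by HFD 3 (74186 CPM) and LFD 1 (92580 CPM). The sorting gene Cd24a, which immature red cells also express, ran from 773 to 3001 CPM in HFD and from 1522 to 4846 CPM in LFD, lowest in HFD 2 and LFD 1. What part erythroid RNA had in the Acp5 level was not tested. In the annotation, 6.75% of the exonic bases of Acp5 also belong to a gene on the opposite strand, and no other member shares exonic bases with another gene.

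Tcirg1, like Acp5, had a lower mean in HFD, and here the groups did not overlap. The pump subunit gene (ENSMUSG00000001750, chromosome 19, 3896050 to 3907133) measured 18.4, 20.7 and 18.1 CPM in HFD 2, 3 and 4, against 29.9, 27.5, 46.1 and 31.4 CPM in LFD 1 to 4. The HFD libraries were close together and the highest LFD library was LFD 3. The means were 19.1 ± 1.44 CPM in HFD and 33.7 ± 8.39 CPM in LFD, a log2 fold change of -0.82 ± 0.25 (95% interval -1.39 to -0.25, edgeR adjusted p = 0.420, DESeq2 adjusted p = 0.0759, the lowest of a range up to 0.9999 over the alternatives).

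Nfatc1, the master transcription factor of osteoclast formation, also acts in other cells (ENSMUSG00000033016, chromosome 18, 80606205 to 80713071). It gave 191, 152 and 172 CPM in HFD 2, 3 and 4, against 190.0, 96.5, 73.4 and 117 CPM in LFD 1 to 4. LFD 1 lay within the HFD range and the other LFD libraries below it. The log2 fold change was 0.52 ± 0.32 (95% interval -0.22 to 1.26, edgeR adjusted p = 0.704), and without LFD 1 it was 0.85.

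**Figure D2:**
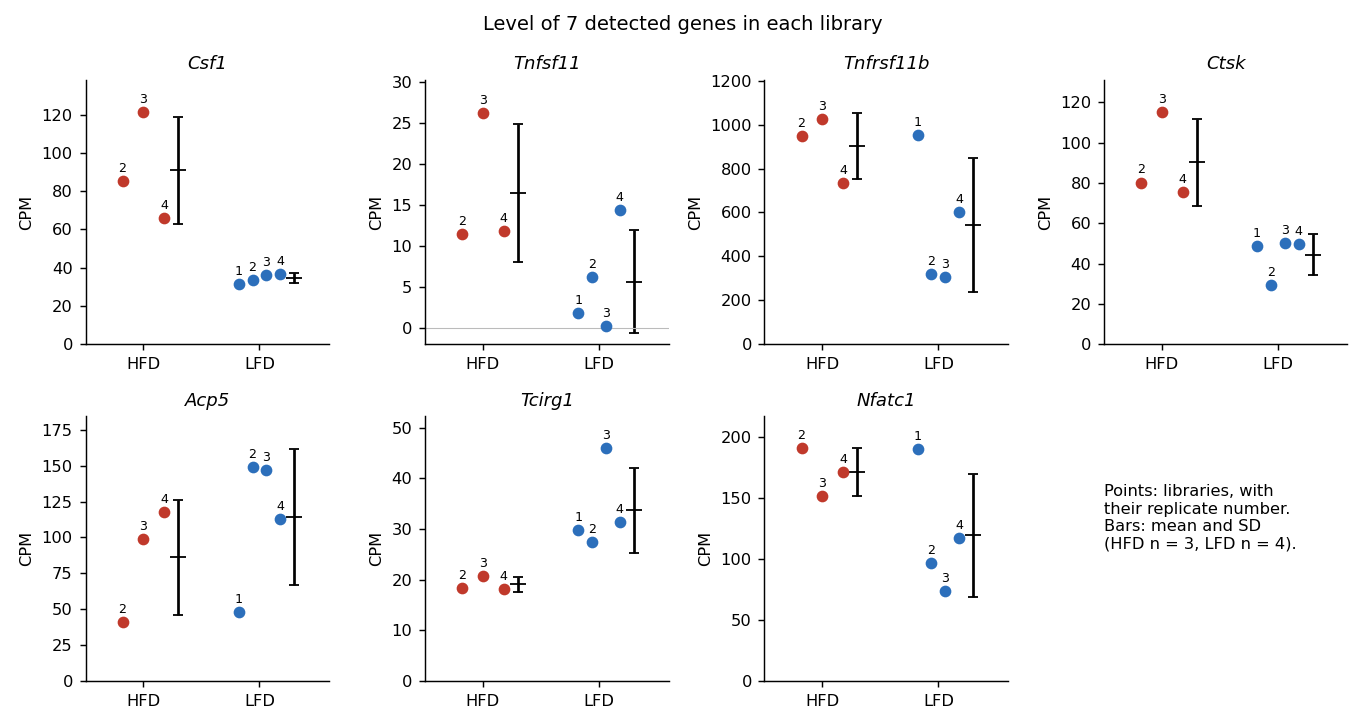
CPM of the 7 genes with counts in every library, 1 point per library labelled with its replicate number, HFD (red, n = 3) left of LFD (blue, n = 4), with mean and SD as bars. Csf1 and Ctsk have every HFD library above every LFD library and Tcirg1 has every HFD library below, while the other 4 genes overlap.

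RANKL RNA was low and uneven, and OPG RNA abundant. Tnfsf11 (ENSMUSG00000022015, chromosome 14, 78277445 to 78308043) had 327, 542 and 247 counts in HFD 2, 3 and 4, against 46, 99, 4 and 290 counts in LFD 1 to 4. On the CPM scale these were 11.4, 26.1 and 11.8 in HFD, against 1.79, 6.19, 0.249 and 14.3 in LFD. LFD 4 lay within the HFD range, and LFD 3, the library with the fewest genes with counts, had only 4 Tnfsf11 counts. The log2 fold change was 1.54 ± 1.02, with a 95% interval from -0.81 to 3.89 (edgeR adjusted p = 0.712). It was 2.58 without LFD 4 and 1.06 without HFD 3.

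Tnfrsf11b (ENSMUSG00000063727, chromosome 15, 54250619 to 54278484) measured 947, 1027 and 735 CPM in HFD 2, 3 and 4, against 952, 319, 305 and 601 CPM in LFD 1 to 4. LFD 1 was as high as the HFD libraries, and LFD 2 and LFD 3 were the lowest. The means were 903 ± 151 CPM in HFD and 544 ± 304 CPM in LFD (log2 fold change 0.73 ± 0.43, 95% interval -0.26 to 1.72, edgeR adjusted p = 0.697), and without LFD 1 the log2 fold change was 1.15.

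Set against each other, OPG counts exceeded RANKL counts in every library. There were 12.1, 25.5 and 16.0 Tnfsf11 counts per 1000 Tnfrsf11b counts in HFD 2, 3 and 4, against 1.88, 19.4, 0.816 and 23.8 in LFD 1 to 4. LFD 2 and LFD 4 lay within the HFD range, and LFD 1 and LFD 3 far below it, LFD 1 through a high OPG count and few RANKL counts and LFD 3 through only 4 RANKL counts. The log2 ratio averaged -5.88 ± 0.54 in HFD and -7.55 ± 2.37 in LFD, a difference of 1.67 that is smaller than the SD of the LFD libraries, and without LFD 3 the difference was 0.83.

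**Figure D3:**
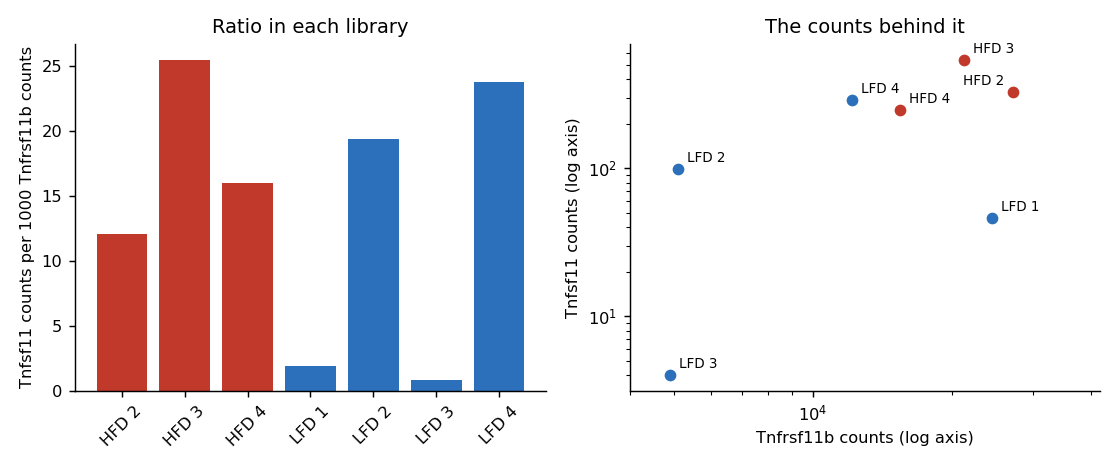
Left, Tnfsf11 counts per 1000 Tnfrsf11b counts in each library (HFD red, LFD blue). Right, the counts of both genes on log axes, where LFD 3 has 4 Tnfsf11 counts and LFD 1 pairs 46 Tnfsf11 counts with 24418 Tnfrsf11b counts.

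Across the members, 0 of the 7 tested passed edgeR's adjusted threshold of 0.05, where 0.035% of all 14304 genes tested did. At an unadjusted p under 0.05 there were 3 members (Csf1 and Ctsk higher, Tcirg1 lower in HFD), beside 7.53% of all genes. The groups did not overlap for the same 3 members, beside 11.9% of all genes. DESeq2 called 2 members, Csf1 and Ctsk, out of 8 with an adjusted p, beside 2.25% of all genes, and limma-voom with sample quality weights called 0, beside 0.196%. With so few members, these shares are given as a description.

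The wider pathway was read from 8 lists that hold 58 other genes, of which 53 could be tested. None passed edgeR's adjusted threshold. At an unadjusted p under 0.05 there were 11 with higher values in HFD (5.18% of all genes) and 1 with lower values (2.35% of all genes). DESeq2 called 6 of the other genes, beside 2.25% of all genes. The median log2 fold change of the 53 was 0.46, with 40 higher and 13 lower, against a median of 0.02 and 51.5% higher over all genes tested. Libraries did not overlap between the diets for 18 of the 53, 16 with every HFD library above (8.4% of all genes) and 2 with every HFD library below (3.47% of all genes).

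On the list named stromal inducers, 8 of 10 tested had higher values in HFD (median log2 fold change 1.52). Genes of this list need not all come from stroma, and the cells that made their RNA were not determined. Il34 encodes the other ligand of the CSF1 receptor and measured 27.3, 22.1 and 16.6 CPM in HFD 2, 3 and 4, against 6.70, 5.38, 2.36 and 5.83 CPM in LFD 1 to 4. Like Csf1, it had every HFD library above every LFD library, with a log2 fold change of 2.11 ± 0.41 (edgeR adjusted p = 0.230, DESeq2 adjusted p = 1.70e-04, the lowest of a range up to 0.807 over the alternatives). Ccl2, a chemokine that draws monocytes, had 7.94 ± 1.37 CPM in HFD and 1.41 ± 1.56 CPM in LFD, and Ptges, a prostaglandin E synthase, 8.33 ± 0.942 CPM in HFD and 2.94 ± 1.99 CPM in LFD. Of the receptors through which stroma is known to raise RANKL, 8 of 8 had higher values in HFD (median 0.55). Lifr, the receptor for leukemia inhibitory factor, had 131 ± 13.5 CPM in HFD and 55.6 ± 15.8 CPM in LFD (log2 fold change 1.24 ± 0.25, edgeR adjusted p = 0.236, DESeq2 adjusted p = 0.00341, range up to 0.807). The vitamin D receptor Vdr (0.65) and the prostaglandin receptor Ptger4 (0.66) had smaller log2 fold changes and overlapping groups, Vdr at 0.41 without LFD 1 and Ptger4 at 0.39 without LFD 3.

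The list named stromal inhibitors gave 6 higher of 8 tested (median log2 fold change 0.48). Not all its genes need come from stroma, and which cells made their RNA was not tested. Slit3, a secreted guidance protein, had 37.6 ± 14.8 CPM in HFD and 11.7 ± 4.67 CPM in LFD (log2 fold change 1.69 ± 0.39, edgeR adjusted p = 0.281, DESeq2 adjusted p = 0.00742, range up to 0.840). Ephrin B2 (Efnb2, 0.62) and Lgr4, another receptor for RANKL (0.35), overlapped between the diets. Single libraries moved both, Efnb2 to 0.16 without HFD 3, 0.40 without LFD 2 and 0.96 without LFD 1, and Lgr4 to 0.12 without LFD 3, 0.22 without HFD 3 and 0.56 without LFD 4. Among repressors of osteoclast formation, Bcl6 had 31.3 ± 10.7 CPM in HFD and 58.1 ± 13.9 CPM in LFD (log2 fold change -0.90 ± 0.29, edgeR adjusted p = 0.491), while Irf8 had a log2 fold change of 0.63, which was 0.29 without LFD 2 and 0.99 without LFD 4.

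**Figure D4:**
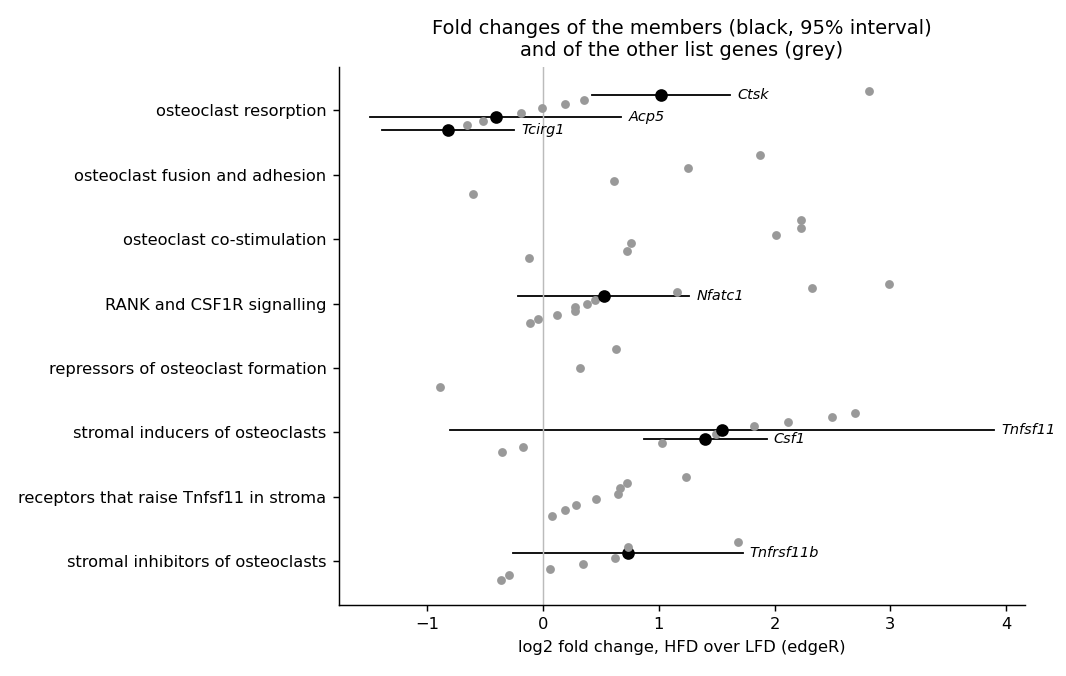
Log2 fold change (HFD over LFD, edgeR) of the 7 tested members in black with 95% intervals and of the other tested genes of each list in grey. Intervals of Csf1 (0.87 to 1.93), Ctsk (0.42 to 1.61) and Tcirg1 (-1.39 to -0.25) leave out 0, unadjusted for the number of genes.

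On the myeloid side, the adaptors that OSCAR and TREM2 signal through had counts in every library, while Oscar had none and Trem2 few. Tyrobp (DAP12) measured 69.9, 65.2 and 74.0 CPM in HFD 2, 3 and 4, against 2.22, 12.3, 18.7 and 26.5 CPM in LFD 1 to 4. Fcer1g, the adaptor that OSCAR uses, measured 58.6 ± 5.03 CPM in HFD and 14.6 ± 9.01 CPM in LFD. DESeq2 called both (adjusted p = 0.0404 and 0.0126, ranges up to 0.935 and 0.833) and edgeR neither (adjusted p = 0.405 and 0.290). Trem2 itself had 28 counts in HFD 2, 1 in HFD 3 and 0 in the other 5 libraries. The co-stimulation list had 5 higher of 6 tested (median log2 fold change 1.38), with the phospholipase Plcg2 at 0.76. These adaptors are common to many myeloid cells, and the granulocyte and monocyte sums given above separated the diets in the same direction. Their part in these values was not tested.

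The list for RANK and CSF1 receptor signalling, which includes Csf1r itself, gave 9 higher of 11 tested (median log2 fold change 0.38). Spi1 (PU.1), a transcription factor of all myeloid cells, had 36.3 ± 5.83 CPM in HFD and 7.26 ± 5.59 CPM in LFD (edgeR adjusted p = 0.319, DESeq2 adjusted p = 0.0147, range up to 0.857). Csf1r, the receptor that CSF1 and IL-34 share, measured 20.6, 12.6 and 30.6 CPM in HFD 2, 3 and 4, against 0.701, 0, 3.11 and 6.86 CPM in LFD 1 to 4 (log2 fold change 2.99 ± 1.18, edgeR adjusted p = 0.615). Traf6, the adaptor of RANK, had a log2 fold change of 0.45 with overlapping groups.

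Resorption genes were split, with 4 higher and 6 lower of 10 tested (median log2 fold change -0.10). Mmp9, a gelatinase of osteoclasts and of neutrophils, measured 477, 344 and 949 CPM in HFD 2, 3 and 4, against 4.44, 68.1, 60.3 and 202 CPM in LFD 1 to 4 (log2 fold change 2.82 ± 0.97, edgeR adjusted p = 0.531). Its lowest library, LFD 1, also had the lowest granulocyte sum (952 CPM), and its highest, HFD 4, the highest (16369 CPM). Between these ends the orders differed. Mmp9 was higher in HFD 2 than in HFD 3, where the sums were 8397 and 12693 CPM. It was also slightly higher in LFD 2 than in LFD 3, where the sums were 1799 and 2272 CPM. The part of granulocytes in the Mmp9 level was not tested. Ostm1, a partner of the chloride channel ClC-7, had a log2 fold change of -0.52 and the anion exchanger Slc4a2 one of 0.35. Among fusion and adhesion genes, 3 of 4 tested had higher values (median 0.93), with the integrin subunit Itgav at 0.61 and the kinase Src at 1.87, or 3.12 without LFD 4. Calcr, the calcitonin receptor, had 21.2 ± 5.52 CPM in HFD and 32.3 ± 7.87 CPM in LFD (log2 fold change -0.60 ± 0.30, edgeR adjusted p = 0.685).

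**Figure D5:**
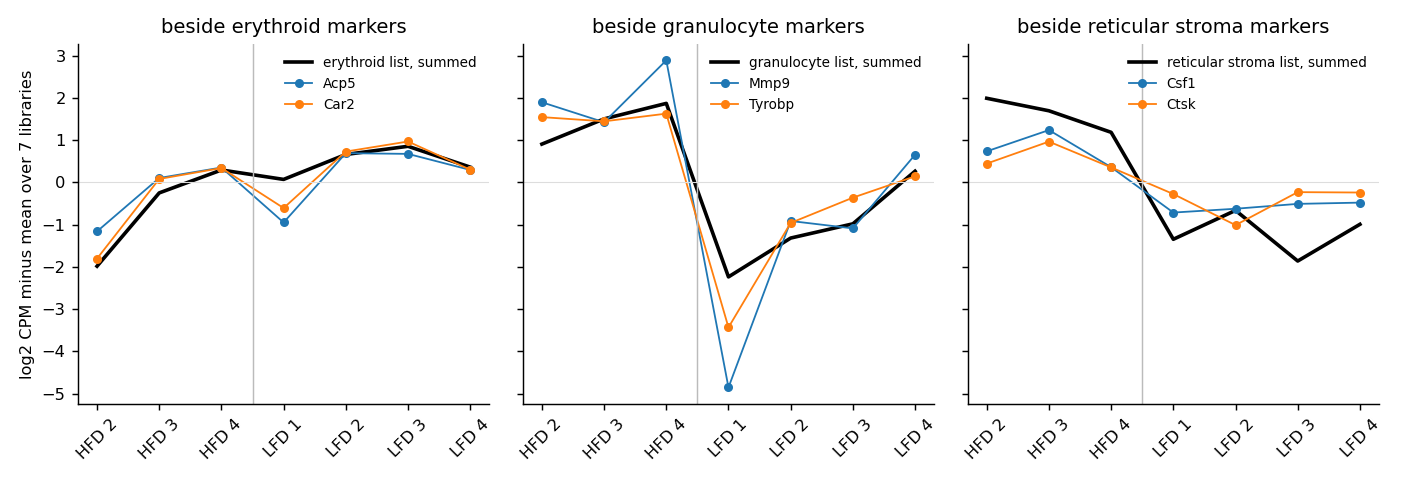
Log2 CPM minus the mean over 7 libraries for pairs of genes (coloured, with points) beside the summed level of a marker list (black), for HFD 2 to 4 on the left of each panel and LFD 1 to 4 on the right, where lines only join the points. Acp5 and Car2 are lowest in HFD 2 with the erythroid sum, and Mmp9 and Tyrobp are lowest in LFD 1 with the granulocyte sum. Within HFD, Mmp9 and Tyrobp are lowest in HFD 3 and the granulocyte sum in HFD 2. Csf1 and Ctsk are higher in HFD, as the reticular stroma sum is, but differ from it within the diets. That sum is highest in HFD 2 and, within LFD, in LFD 2, while both genes are highest in HFD 3 and Ctsk is lowest in LFD 2.

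The genes whose profile over the 7 libraries came closest were found among 8653 genes by the root mean square difference of centred log2 CPM, a description. For Ctsk these were Il1rap (0.082), Snx14 (0.184) and Timp1 (0.185), where the median gene was at 0.719. Il1rap, a co-receptor for interleukin 1, measured 17.6 CPM in HFD and 8.06 CPM in LFD on average. For Csf1 they included the gap junction gene Gja1 (0.228) and Tmem176b (0.243), where the median gene was at 0.824. Tnfrsf11b came closest to Slc37a3 (0.128), Nif3l1 (0.130) and Vps36 (0.130), where the median gene was at 0.775. Tnfsf11 came closest to Nckap1l (0.648), Padi4 (0.728) and Stk10 (0.757), where the median gene was at 2.02. Acp5, added after its values were seen, was closest to Pip4k2a (0.0862), Plek2 (0.0869) and Hnrnpul1 (0.0924), where the median gene was at 0.823. Plek2 measured 14.4, 34.8 and 39.0 CPM in HFD 2, 3 and 4, against 16.1, 52.4, 49.7 and 33.0 CPM in LFD 1 to 4, low in the same 2 libraries as Acp5.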

How the data were processed

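RNA was measured in 7 libraries of CD24 and CD29 positive femur cells. The deposited values are raw counts per Ensembl gene, which the authors did not normalize. Per the labels' protocols, libraries were made with a low-input SMART-Seq kit and Nextera XT, without molecular identifiers being named. In the submitters' processing notes the tools listed are STAR 2.5.2b, HTSeq 0.11.2, DESeq2 1.26.0, cutadapt and bcl2fastq 2.20, and the build is mm10. How strand was treated and which annotation was counted is not given in the sources used here.

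Groups came from the diet in the titles. The diets were compared over the whole table with edgeR 4.0.16 (TMM, filterByExpr, robust quasi-likelihood test, diet as the sole term, Benjamini-Hochberg over 14304 genes, threshold 0.05) in R 4.3.3. The SE is the log2 fold change over the root of F. P-values measure the spread between these libraries, which may be technical in part. The procedure was tested on simulated counts. Exon lengths came from GENCODE M21 on the same build. Alternatives were DESeq2 1.42.0, limma-voom (limma 3.58.1), other normalizations and filters, a replicate block and each library left out.

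The named genes are all 10 members, up to 3 others per pathway list by smallest p, 2 per cell type list by level, and the 3 closest profiles, and some of these are not reported here. The members and lists were chosen with earlier results of these data known. Of the listed genes 1 (Ahsp) had no match.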

Additional observations from a re-analysis of the deposited data

Results flagged for a closer look

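Within the 4 LFD libraries, a library was set apart when its gap to the nearest other, as a share of the group's range, exceeded Dixon's 95% critical value for 4 samples, which chance gives in about 1 of 20 groups. This held for 2 of the 9 measures checked. Ctsk was low in LFD 2 (29.2 CPM, against 48.6 to 50.2 CPM in LFD 1, 3 and 4), a gap of 0.926 of the range. Tnfrsf11a had 28 counts in LFD 4 and 0 in the other 3 LFD libraries, a gap of 1.0 of the range. With those 3 at 0, any count in LFD 4 gives a gap of 1.0. The critical value and its rate therefore say nothing about Tnfrsf11a.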

How the results depend on the processing

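The 7 tested members kept their direction under all 16 alternatives. DESeq2 called 2 (Csf1 and Ctsk), and the other alternatives called 0, each fit that left out a library included. The number of genes called over the whole table was 5. It was 8 with no filter beyond 1 count, 0 with at least 10 counts in 4 libraries, 361 with DESeq2, 28 with limma-voom, and 1 to 6 with a library left out. With the replicate number as a block 0 genes and 0 members were called, and same-numbered libraries did not deviate together (r of -0.095, 0.0263 and -0.062), so the numbers were not read as pairs. Csf1 ranged from 1.15 to 1.59 on the log2 scale, Ctsk from 0.82 to 1.18 and Tcirg1 from -0.91 to -0.63. The Tnfsf11 to Tnfrsf11b difference was 1.67, 1.72 per length, 1.63 with a pseudocount of 1, and 0.83 to 2.39 with a library left out, lowest without LFD 3. The summed lists kept their direction with unscaled totals. Tnfsf11, Dcstamp, Tnfrsf11a and Oscar had the fewest counts of the members, so counting error weighs most on them. Among genes named outside the 10, the sign turned with limma-voom for Tek (0.34), Col2a1 (-0.068) and Col9a1 (-0.029), and without LFD 4 for Pecam1, which ran from -1.12 to 0.54 with a library left out. The causes of these changes were not tested.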

Other observations

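The most abundant markers of other cell types place the members among the rest of the RNA in the sort. Ngp and S100a8, granule genes of neutrophils, averaged 3647 ± 1422 and 2761 ± 883 CPM in HFD and 770 ± 505 and 533 ± 411 CPM in LFD, and the monocyte receptor Cd14 had 68.3 ± 16.3 CPM in HFD and 20.2 ± 10.7 CPM in LFD. The globin genes Hbb-bs and Hba-a1 averaged 31706 ± 21324 and 10262 ± 5720 CPM in HFD and 55724 ± 9012 and 21285 ± 6225 CPM in LFD. RNA of the B lineage and endothelial lists was scarce. Ebf1 and Cd79a of the B lineage averaged 17.6 and 14.2 CPM in HFD and 10.1 and 8.49 CPM in LFD, and Tek and Pecam1 of endothelium 2.91 and 1.43 CPM in HFD and 7.11 and 2.24 CPM in LFD, a direction that turned for Tek with limma-voom and for Pecam1 without LFD 4. The cartilage collagens Col2a1 and Col9a1 averaged 29701 and 1611 CPM in HFD and 22427 and 1158 CPM in LFD, a direction that turned with limma-voom, and the chondrocyte list summed to 26270 to 46076 CPM in HFD and 14082 to 34867 CPM in LFD. None of these genes passed edgeR's adjusted threshold, and DESeq2 called Ngp, S100a8 and Cd14.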
